A study of Mus musculus with 23 samples.

Results

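The genes described here are 10 genes of autophagy and mitophagy in mouse liver: Sqstm1, Map1lc3a, Map1lc3b, Gabarapl1, Gabarapl2, Ulk1, Wipi1, Becn1, Bnip3 and Bnip3l. They were chosen by name, with earlier results of these data known, from the 24062 genes of the count files. All 10 passed the filter on low counts that left 14196 genes. Poly(A) RNA of whole liver was sequenced in 23 libraries from mice of the B6/129 strain. The mice were either wild type (WT) or carried Ehhadh_ko, a knockout (KO) of the gene for the peroxisomal L-bifunctional protein, and each genotype received saline or L-AC. The groups were 7 WT mice given saline (29 to 45 weeks of age), 5 KO mice given saline (31 to 44 weeks), 6 WT mice given L-AC (28 to 44 weeks) and 5 KO mice given L-AC (28 to 38 weeks). The labels give neither the dose and duration of L-AC, nor the sex of the mice, nor the part of Ehhadh that was removed, and they write L-AC only as an abbreviation. The title of the series concerns 3-hydroxydicarboxylic aciduria and hepatic cholesterol in mice that lack EHHADH.

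Autophagy encloses cytoplasm in a double membrane, the autophagosome, which fuses with lysosomes. The kinase ULK1 starts the process, Beclin 1 (Becn1) acts in the class III phosphatidylinositol 3-kinase complex that marks the site, and WIPI1 binds the lipid made there. Proteins of the Atg8 family (Map1lc3a, Map1lc3b, Gabarapl1 and Gabarapl2) are then attached to the growing membrane. The receptor p62 (Sqstm1) links ubiquitinated cargo to Atg8 proteins, and BNIP3 and NIX (Bnip3l) sit in the outer mitochondrial membrane and recruit Atg8 proteins to mitochondria, which is one form of mitophagy. Liver uses autophagy during fasting to free amino acids and lipids. These data are messenger RNA levels, and autophagic flux was not measured.

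Library totals ranged from 24521896 to 48095959 counts. Ehhadh lay between 634.8 and 1635 CPM (counts scaled to a fixed library total) in WT livers on saline and between 90.92 and 252.9 CPM in KO livers on saline. On L-AC it lay between 10260 and 14650 CPM in WT and between 1421 and 2144 CPM in KO, so that the genotypes did not overlap within either treatment. A principal component with 53.2% of the variance placed all saline libraries on one side and all L-AC libraries on the other, with WT saline replicate 1 the closest of the saline libraries to the other side. CPM values here are scaled by TMM factors.

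RefSeq promoter sequences, on GRCm38.p6, were at hand for 7 of the 10 genes, and 4 are shown because these genes had among the larger differences under L-AC. Map1lc3a, Becn1 and Bnip3l were not matched. Each line gives the 250 bases before the RefSeq start, 5′ to 3′ on the strand of the gene, and capitals mark a match to a motif that was searched. The Sqstm1 window is chr11:50210821-50211070 (minus strand), that of Gabarapl1 is chr6:129532942-129533191 (plus strand), that of Wipi1 is chr11:109611390-109611639 (minus strand) and that of Bnip3 is chr7:138909507-138909756 (minus strand).
Sqstm1: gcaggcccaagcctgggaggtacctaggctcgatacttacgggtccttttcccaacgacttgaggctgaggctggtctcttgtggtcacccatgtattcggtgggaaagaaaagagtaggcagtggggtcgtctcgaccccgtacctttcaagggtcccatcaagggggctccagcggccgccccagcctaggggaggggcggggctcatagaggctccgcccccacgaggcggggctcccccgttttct
Gabarapl1: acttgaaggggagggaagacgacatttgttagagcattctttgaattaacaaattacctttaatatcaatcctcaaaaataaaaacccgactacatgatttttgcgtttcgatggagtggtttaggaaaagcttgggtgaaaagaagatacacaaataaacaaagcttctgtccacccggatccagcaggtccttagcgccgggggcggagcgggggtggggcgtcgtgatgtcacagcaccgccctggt
Wipi1: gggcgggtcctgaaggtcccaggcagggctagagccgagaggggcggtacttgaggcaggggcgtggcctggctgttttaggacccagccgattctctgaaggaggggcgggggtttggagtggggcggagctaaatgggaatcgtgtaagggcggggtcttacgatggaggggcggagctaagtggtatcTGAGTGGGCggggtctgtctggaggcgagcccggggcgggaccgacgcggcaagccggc
Bnip3: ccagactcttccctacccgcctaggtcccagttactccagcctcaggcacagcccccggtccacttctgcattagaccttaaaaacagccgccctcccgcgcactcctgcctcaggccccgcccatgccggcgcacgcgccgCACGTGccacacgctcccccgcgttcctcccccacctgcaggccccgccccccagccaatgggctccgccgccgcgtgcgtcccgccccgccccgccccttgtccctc

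A set of 4 motifs was searched on both strands of these windows. CACGTG, the E-box read by TFEB and TFE3 among other factors, was in 6.02% of the 32851 windows of this table, and ACGTG, the core of hypoxia response elements, in 16.6%. ACGTG lies inside CACGTG, so each E-box also counts as a match to it on both strands. GTAAACA, read by FOXO factors, was in 3.17% of windows. TGANNNNGC, a loose pattern for the antioxidant response element read by NRF2, was in 35.2%. A match to so common a pattern does not show a site of NRF2. Among the 7 windows, that of Bnip3 held CACGTG, from 108 to 103 bases before the start, with its embedded ACGTG on both strands. The Wipi1 window held TGANNNNGC from 59 to 51 bases before the start. Map1lc3b and Gabarapl2 also held TGANNNNGC, and Gabarapl2 held ACGTG. None of the 4 motifs was found in the windows of Sqstm1, Gabarapl1 or Ulk1, which says only that these letters are not in those 250 bases.

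The first comparison asked how L-AC changed these genes in WT livers, and the second asked the same in KO livers. In WT, Sqstm1, Map1lc3b, Wipi1, Bnip3 and Bnip3l rose on L-AC and Gabarapl1 fell, while Map1lc3a, Gabarapl2, Ulk1 and Becn1 did not pass the test. In KO, those 6 genes moved in the same directions and Gabarapl2 also passed, with a small rise. A gene passed where its p from edgeR's quasi-likelihood test, with Benjamini-Hochberg adjustment over all genes tested, was under 0.05. The 6 of 10 genes that passed in WT stood against 53.3% of all genes tested, and the 7 of 10 in KO against 48.8%. By direction, 5 of 10 rose in WT against 26.6% of all genes and 1 fell against 26.7%, and 6 of 10 rose in KO against 25.2% and 1 fell against 23.6%. The median log2 fold change of the 10 genes was 0.26 in WT and 0.29 in KO, and that of all genes was -0.01 in both. Since about every other gene tested passed in these comparisons, a pass alone does not set a gene apart. The 10 genes were chosen with earlier results of these data known, so these shares and medians are descriptions only.

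**Figure D1:**
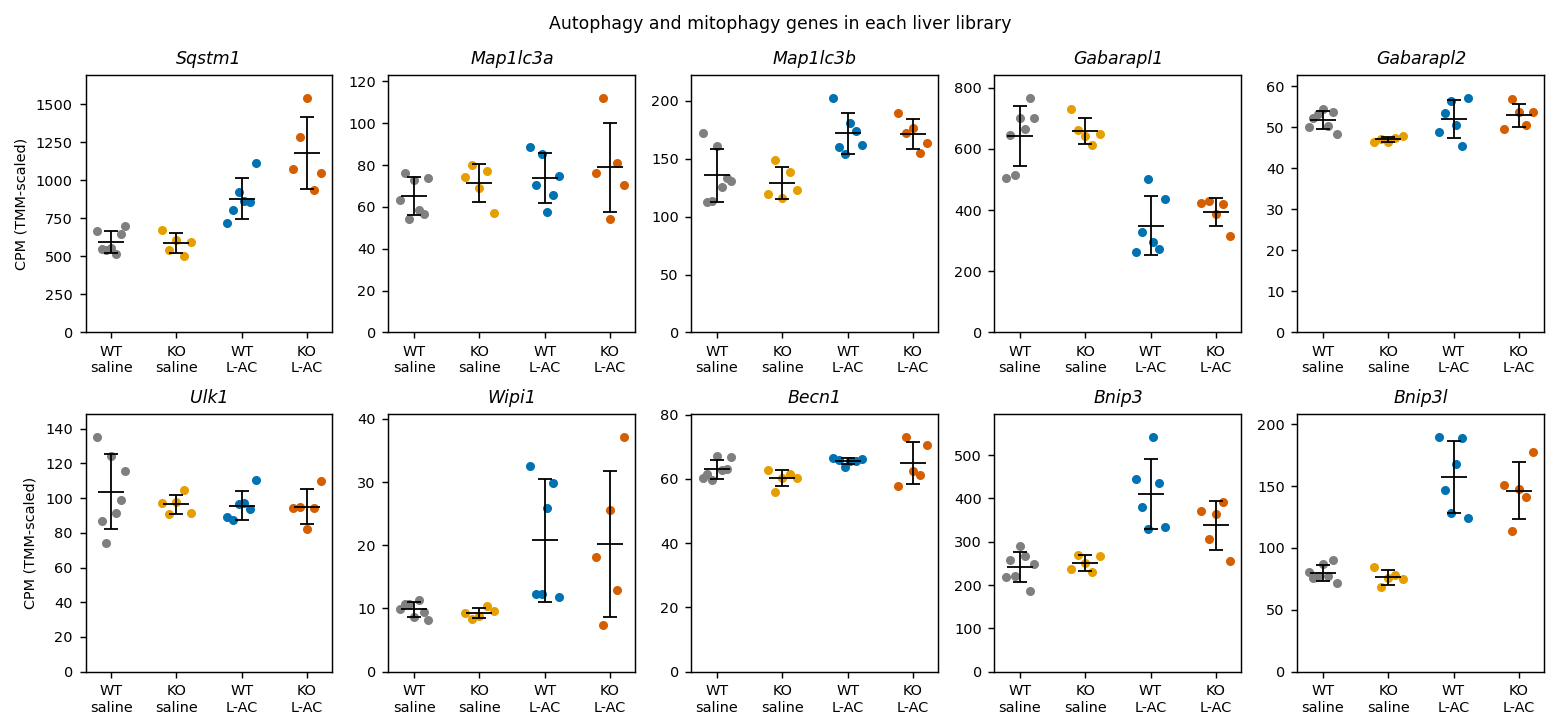
TMM-scaled CPM (vertical axes, from 0) of each of the 10 genes in the 23 libraries, with 1 point per mouse and bars for the mean ± SD of each group. Wipi1 spreads widely on L-AC, from 7.367 to 37.1 CPM in KO, while Becn1 in WT on L-AC stays between 63.64 and 66.62 CPM.

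Sqstm1, the gene for the cargo receptor p62, had in WT a lowest, median and highest level of 515.1, 555.9 and 700.9 CPM on saline, and of 721.8, 861 and 1113 CPM on L-AC. In KO the values were 676.2, 540.7, 607.9, 504.8 and 594 CPM on saline and 1074, 1284, 1541, 939.2 and 1051 CPM on L-AC. Every L-AC library lay above every saline library of its genotype, with KO replicate 3 the highest of all 23. The log2 fold change was 0.56 (SE 0.12, 1.47-fold) in WT, with an adjusted p of 0.000358 by edgeR's quasi-likelihood test. In KO it was 1.01 (SE 0.13, 2.01-fold), with an adjusted p of 2.41e-06 by the same test. Groups that do not overlap, as for Sqstm1, were found for 5 of the 10 genes in WT, against 24.1% of all genes, and for 5 in KO, against 32.6%.

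Among the Atg8 genes described here, Gabarapl1, the highest of them per kilobase of exon, fell. Gabarapl1 had a lowest, median and highest level of 503.7, 664.8 and 766.7 CPM in WT on saline, and of 264, 310.6 and 500.8 CPM on L-AC. In KO it was at 730.4, 660.8, 643, 613.4 and 649.6 CPM on saline and at 421.7, 428.1, 387.5, 418.5 and 314.8 CPM on L-AC. The groups did not overlap in either genotype, although WT L-AC replicates 3 and 6 reached 500.8 and 435.8 CPM while the other 4 stayed at or under 326.7 CPM. Gabarapl1 fell by 0.88 on the log2 scale in WT (SE 0.14, adjusted p = 1.7e-05, edgeR's quasi-likelihood test). It fell by 0.74 in KO (SE 0.16, adjusted p = 0.000476, same test). Its exons share bases with those of 1700101I11Rik, and because reads were counted for every overlapping gene without strand, some of its count may be shared, but the whole count of 1700101I11Rik was at most 5.35% of that of Gabarapl1 in any library.

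Map1lc3b, which encodes the LC3B form used as a marker of autophagosomes, moved the other way. In WT its lowest, median and highest levels were 112.9, 130.4 and 172 CPM on saline and 154.2, 167.6 and 202.5 CPM on L-AC. The WT groups overlapped, since saline replicates 1 and 4 were at 172 and 160.7 CPM. In KO the saline values were 119.3, 148.5, 116.5, 138.9 and 122.8 CPM and the L-AC values 189.8, 172.4, 176.3, 154.8 and 163.8 CPM, without overlap. The log2 fold change was 0.35 in WT (SE 0.10, adjusted p = 0.005) and 0.41 in KO (SE 0.11, adjusted p = 0.00439), both by edgeR's quasi-likelihood test.

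Gabarapl2, the gene for GATE-16, had the narrowest spread of the Atg8 genes described here on saline, with a CV of 4.31% in WT and 1.39% in KO. In WT its lowest, median and highest levels were 48.35, 52.3 and 54.42 CPM on saline and 45.41, 52.01 and 57.15 CPM on L-AC, so the L-AC range enclosed the saline range. In KO it was at 46.46, 47.09, 46.34, 47.4 and 47.91 CPM on saline and at 49.66, 56.82, 53.79, 50.55 and 53.8 CPM on L-AC. All 5 KO L-AC libraries lay above all 5 KO saline libraries. The log2 fold change was 0.17 in KO (SE 0.06, adjusted p = 0.0338, edgeR's quasi-likelihood test) and 0.01 in WT (95% interval -0.11 to 0.12). The pass in KO was lost when KO saline replicate 1, 2, 3 or 4 or KO L-AC replicate 2, 3 or 5 was left out, with an adjusted p between 0.0511 and 0.0825 (edgeR).

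Map1lc3a, which encodes LC3A, ranged from 54.33 to 76.1 CPM in WT on saline and from 57.56 to 88.7 CPM in WT on L-AC. In KO it ranged from 56.97 to 80.05 CPM on saline and from 54.24 to 112.1 CPM on L-AC. The ranges overlapped in both genotypes. Its log2 fold change was 0.18 in WT (95% interval -0.10 to 0.46) and 0.14 in KO (95% interval -0.18 to 0.46).

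Per kilobase of exon, on the scale that allows genes to be compared, the 4 Atg8 genes summed to a mean of 556.6 ± 59.33 (SD, n = 7) in WT on saline and 421.2 ± 57.35 (SD, n = 6) in WT on L-AC. Gabarapl1 made up 64.8 ± 4.03% of this sum in WT on saline and 46.1 ± 6.67% in WT on L-AC. In KO its share was 65.9 ± 2.46% (SD, n = 5) on saline and 49.1 ± 2.85% (SD, n = 5) on L-AC. In WT the lowest share on saline, 57.3%, lay above the highest on L-AC, 55.2%, and in KO the shares were likewise apart, at 63% and 51.8%. The Map1lc3b share went from 14.3 ± 2.84% to 24.4 ± 4.8% in WT and from 13.4 ± 1.41% to 22.3 ± 2.24% in KO. Gabarap, the other Atg8 gene, was not among the 10 and is not part of these sums and shares. It had a log2 fold change of -0.10 in WT and -0.09 in KO and passed in neither. Atg8 genes are alike in sequence, and a read that matched several of them was counted once, at its primary alignment.

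**Figure D2:**
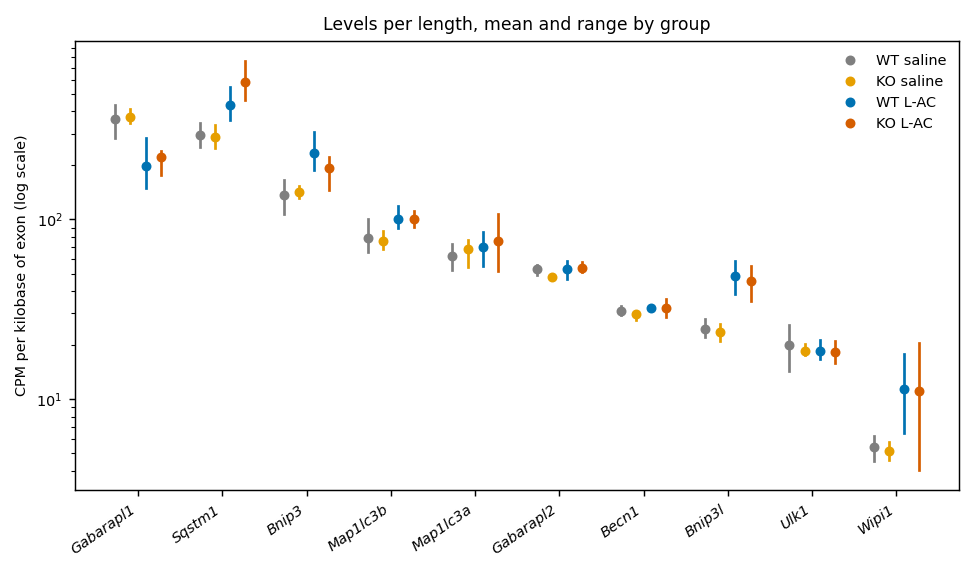
CPM per kilobase of exon (log axis) for the 10 genes, ordered by their level in WT on saline, with points for group means and lines from the lowest to the highest library. Gabarapl1 leads in both saline groups, at 362.3 and 371.9, and Sqstm1 leads in both L-AC groups, at 433.6 and 580.2.

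The order of the genes by level per kilobase began with Gabarapl1, Sqstm1 and Bnip3 in both saline groups. The ranges of Gabarapl1 and Sqstm1 overlapped in WT on saline and did not in KO on saline. On L-AC, Sqstm1 came first in both genotypes, apart from the next gene. The next places went to Bnip3 and Gabarapl1 in WT and to Gabarapl1 and Bnip3 in KO, with overlapping ranges each time. Map1lc3b, Map1lc3a and Gabarapl2 followed in all 4 groups, and Ulk1 and Wipi1 closed the order in all 4. Becn1 lay above Bnip3l on saline and below it on L-AC, where the ranges were apart in WT and overlapped in KO. Wipi1 rose from 5.42 ± 0.6248 (SD, n = 7) to 11.44 ± 5.363 (SD, n = 6) CPM per kilobase in WT, and its range then overlapped that of Ulk1.

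Both mitochondrial receptors rose. Bnip3l, which encodes NIX, had in WT a lowest, median and highest level of 71.5, 77.33 and 89.93 CPM on saline and of 123.9, 157.6 and 189.4 CPM on L-AC. The KO values were 84.37, 68.39, 75.84, 77.72 and 74.52 CPM on saline and 151, 113.8, 147.8, 141 and 177.7 CPM on L-AC. The lowest L-AC library of either genotype lay above all 12 saline libraries. Bnip3l differed by a log2 fold change of 0.98 in WT (SE 0.11, 1.97-fold, adjusted p = 1.02e-07) and 0.94 in KO (SE 0.12, 1.92-fold, adjusted p = 1.5e-06), by edgeR's quasi-likelihood test. In WT, 6.57% of all genes had a higher log2 fold change, and in KO 7.97% had.

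Bnip3 had in WT a lowest, median and highest level of 187, 247.5 and 289.2 CPM on saline and of 328.9, 407.9 and 541 CPM on L-AC, without overlap. The KO values were 236.5, 268.2, 250.6, 230.3 and 268 CPM on saline and 371.8, 306.3, 364.4, 391.3 and 255.2 CPM on L-AC. The KO groups overlapped through L-AC replicate 5, which lay within the saline range while the other 4 lay above it. Bnip3 differed by a log2 fold change of 0.77 in WT (SE 0.12, 1.71-fold, adjusted p = 1.57e-05, edgeR's quasi-likelihood test). In KO it was 0.43 (SE 0.14, 1.35-fold, adjusted p = 0.0132, same test). The same KO replicate 5 had the highest Bnip3l and Wipi1 and the lowest Gabarapl1 of the KO L-AC group. Per kilobase, Bnip3 made up 84.5 ± 2.63% of the sum of both receptors in WT on saline and 82.7 ± 1.66% on L-AC. In KO it made up 85.8 ± 1.66% on saline and 80.7 ± 4.59% on L-AC, with a lowest share of 72.6%.

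Of the genes that act early, Wipi1 rose and Ulk1 and Becn1 did not pass. Wipi1 was the lowest of the 10 per kilobase, with 195 to 1202 counts per library. In WT its lowest, median and highest levels were 8.225, 9.96 and 11.31 CPM on saline, and the 6 values on L-AC were 32.52, 12.25, 12.28, 25.97, 29.94 and 11.77 CPM. In KO it was at 9.271, 8.303, 8.88, 10.43 and 9.659 CPM on saline and at 18.21, 7.367, 25.55, 12.98 and 37.1 CPM on L-AC. In WT, 3 L-AC libraries lay just above the highest saline library and 3 lay far above it. The 3 just above came from mice of 44, 42 and 41 weeks, and the 3 far above from mice of 36, 28 and 34 weeks. In KO, L-AC replicate 2 lay below all saline libraries and the other 4 above them. KO L-AC replicates 2 and 5, the lowest and the highest in Wipi1, came from mice of 31 and 29 weeks. The CV was 46.9% in WT on L-AC and 57.1% in KO on L-AC, against 11.5% and 8.64% on saline. The log2 fold change was 1.08 in WT (SE 0.28, 2.11-fold, adjusted p = 0.00276) and 1.12 in KO (SE 0.33, 2.17-fold, adjusted p = 0.00677), by edgeR's quasi-likelihood test. Without KO L-AC replicate 5 the KO value was 0.78, with an adjusted p of 0.0417 (edgeR).

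Ulk1 had a lowest, median and highest level of 74.39, 99.13 and 135.1 CPM in WT on saline, and of 87.27, 95.26 and 110.2 CPM in WT on L-AC. In KO it ranged from 91.12 to 104.9 CPM on saline and from 82.09 to 110 CPM on L-AC. The L-AC range lay inside the saline range in WT and around it in KO. Ulk1 had a log2 fold change of -0.12 in WT (95% interval -0.34 to 0.11) and -0.02 in KO (95% interval -0.27 to 0.23).

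Becn1 ranged from 59.83 to 67.21 CPM in WT on saline and from 63.64 to 66.62 CPM in WT on L-AC. In KO it ranged from 56.02 to 62.86 CPM on saline and from 57.92 to 72.99 CPM on L-AC. The groups overlapped in both genotypes, and the log2 fold change was 0.06 in WT (95% interval -0.06 to 0.17) and 0.11 in KO (95% interval -0.02 to 0.24). Becn1 shares exon bases with Cntd1, whose whole count reached up to 31.6% of that of Becn1, so its level is uncertain to that extent.

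**Figure D3:**
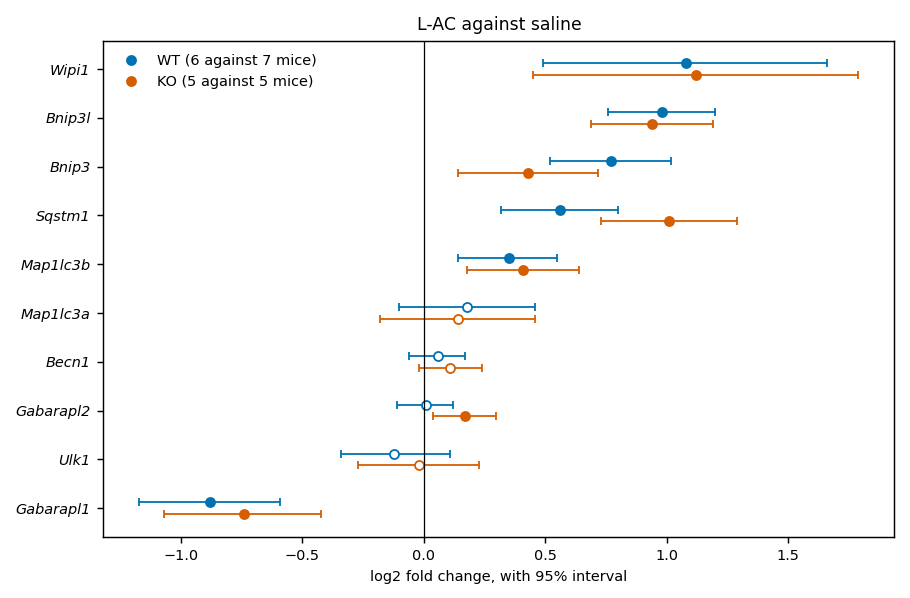
Log2 fold change of L-AC against saline (horizontal axis) with its 95% interval for each gene, in WT (6 against 7 mice) and KO (5 against 5 mice), where filled points passed at an adjusted p under 0.05. The genes run from Wipi1, at 1.08 in WT and 1.12 in KO, down to Gabarapl1, at -0.88 and -0.74.

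The liver is a mixture of cells, and in such bulk samples fewer cells of a type and less RNA per cell cannot be told apart. Markers of some cell types passed in the L-AC comparisons. Their counts stand against all genes tested, of which 26.6% rose and 26.7% fell in WT. In KO, 25.2% of all genes rose and 23.6% fell. Of 8 Kupffer cell and macrophage markers, 1 rose and 5 fell in WT, and 1 rose and 4 fell in KO. Their summed level ranged from 67.75 to 235.8 CPM in WT on saline, from 52.18 to 98.34 CPM in WT on L-AC, from 86.88 to 184.8 CPM in KO on saline and from 44.35 to 155.3 CPM in KO on L-AC. Of 7 hepatocyte markers, 1 rose and 3 fell in WT and 4 fell in KO, with a summed level from 53660 to 64700 CPM in WT on saline and from 42530 to 50700 CPM in WT on L-AC. In KO that sum ranged from 57710 to 68110 CPM on saline and from 31010 to 53360 CPM on L-AC. Of 6 stellate cell markers, 3 rose and 1 fell in WT and 1 rose and 1 fell in KO. Of 7 endothelial markers, 1 fell in WT and 2 fell in KO, and of 5 cholangiocyte markers 1 fell in each genotype. Of 6 lymphocyte markers 4 were tested, of which 1 rose and 3 fell in WT and 1 rose and 1 fell in KO. No marker of the 6 lists was at 0 in all libraries of a group, and the part of these shifts in the changes above was not tested.

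The 10 genes were also followed from mouse to mouse within groups. After each gene's log2 CPM was centred on its group mean, the correlation over the 23 libraries was above 0.5 for 3 of the 45 pairs and below -0.5 for 6. The highest was between Wipi1 and Bnip3l, at 0.83, and it was 0.07 over the 12 saline libraries alone and 0.93 over the 11 L-AC libraries. The lowest was between Wipi1 and Gabarapl1, at -0.67, with -0.42 on saline and -0.76 on L-AC. Gabarapl1 and Bnip3l had -0.60 over all libraries, 0.30 on saline and -0.88 on L-AC. The same L-AC libraries differed on the principal component that parted the treatments across all genes. The 3 with the most Wipi1 (KO replicate 5 and WT replicates 1 and 5) had its 3 highest scores, at 72.41, 63.13 and 66.23. WT replicate 3 and KO replicate 2, which were low in Wipi1, had its lowest scores among L-AC libraries, at 27.9 and 38.19. WT replicates 2 and 6 were no higher in Wipi1 than WT replicate 3, at 12.25 and 11.77 against 12.28 CPM. Yet their scores were higher, at 42.46 and 52.02. The part of this shared difference, and of the ages of the mice, in the correlations was not tested. These correlations are descriptions, since the values of both genes of a pair come from the same libraries and share their depth and scaling.

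**Figure D4:**
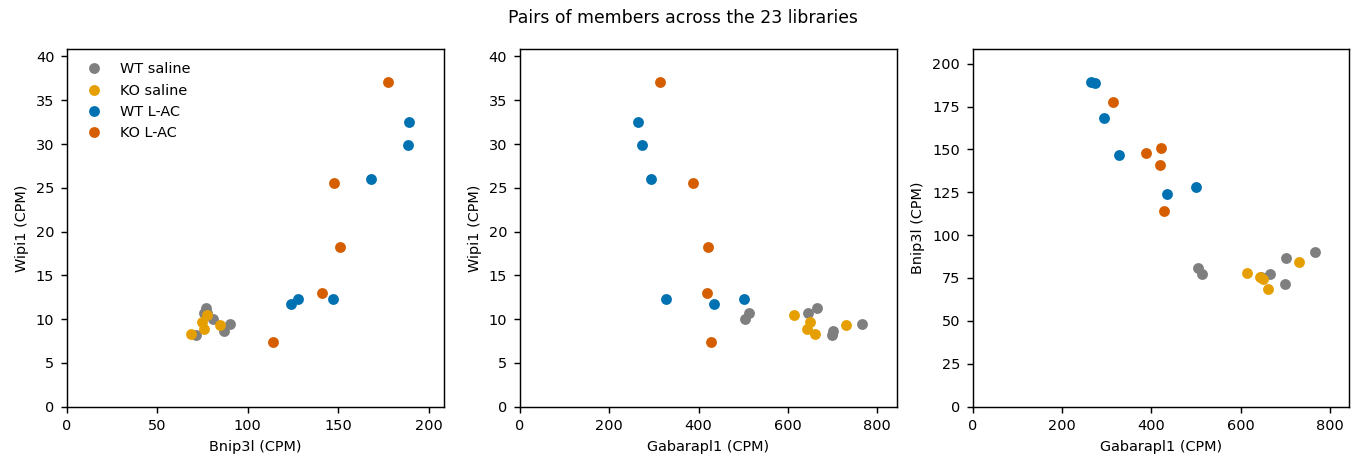
CPM of 3 pairs of genes, with 1 point per library. Saline libraries form 1 cluster with Wipi1 from 8.225 to 11.31 CPM, and L-AC libraries lie outside it with more Bnip3l and less Gabarapl1, while their Wipi1 runs from 7.367 CPM in KO replicate 2, below the saline range, to 37.1 CPM in KO replicate 5.

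For 4 of the 6 genes that passed in both genotypes, those with the largest mean size of change, the genes most like them in these centred values were looked up among all genes tested. Wipi1 was most like Atg16l2 (r = 0.93), Lrch3 (0.91) and Zfp207 (0.91). Bnip3l was most like Taf1d (0.87), Atg16l2 (0.84) and Wipi1 (0.83). Atg16l2, a relative of the Atg16l1 gene of LC3 conjugation, ranged from 6.324 to 11.68 CPM in WT on saline and from 13.94 to 54.25 CPM in WT on L-AC. In KO it ranged from 7.674 to 11.27 CPM on saline and from 9.86 to 79.98 CPM on L-AC. Gabarapl1 was most like Asb13 (0.89), Ulk2 (0.87), the relative of Ulk1, and Ap2a2 (0.87). Sqstm1 was most like Gtpbp2 (0.90), Zfand2a (0.76) and Tfe3 (0.75), which encodes a transcription factor of lysosomal and autophagy genes. All of these values are over the 23 libraries, and they carry no test.

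Other genes of the pathway were read from 8 lists. These lists, too, were chosen with earlier results of these data known, so their counts are descriptions only. Their counts stand against all genes tested, of which 26.6% rose and 26.7% fell in WT, and 25.2% rose and 23.6% fell in KO. Of 18 genes of initiation and the class III phosphatidylinositol 3-kinase complex, 6 rose and 5 fell in WT, and 6 rose and 6 fell in KO. Atg2a, which encodes a lipid transfer protein of the growing membrane, rose with a log2 fold change of 1.16 in WT (SE 0.143) and 1.27 in KO (SE 0.165), with edgeR adjusted p of 6.88e-07 and 1.74e-06. Atg101, a subunit of the ULK complex, fell by 0.93 in WT (SE 0.115) and fell by 0.76 in KO (SE 0.13), with edgeR adjusted p of 7.11e-07 and 4.75e-05. Ulk2 fell by 0.80 in WT (SE 0.13) and fell by 0.83 in KO (SE 0.147), with edgeR adjusted p of 2.28e-05 and 7.51e-05. Ulk2 went from a mean of 71.02 ± 6.108 CPM (SD, n = 7) to 40.77 ± 9.775 CPM (SD, n = 6) in WT, while Ulk1 did not pass.

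Of 12 genes of Atg8 and Atg12 conjugation, 2 rose and 5 fell in WT, and 2 rose and 3 fell in KO. Atg16l2 rose 3.65-fold in WT and 3.84-fold in KO (edgeR adjusted p of 0.000178 and 0.000602). Atg3, the E2-like enzyme that attaches Atg8 proteins to lipid, fell by 0.51 on the log2 scale in WT and fell by 0.47 in KO (edgeR adjusted p of 8.04e-05 and 0.000799). Atg4c, a protease that processes Atg8 proteins, fell by 0.58 in WT and fell by 0.63 in KO (edgeR adjusted p of 0.000902 and 0.00153).

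Of 14 further receptors and mitophagy genes, 9 rose and 2 fell in WT, and 8 rose and 2 fell in KO, with a median log2 fold change of 0.32 in WT and 0.26 in KO. Optn, which encodes the receptor optineurin, went from 142.7 ± 7.203 CPM (SD, n = 7) to 232.3 ± 15.53 CPM (SD, n = 6) in WT. In KO Optn went from 142.7 ± 5.496 CPM to 229.7 ± 11.02 CPM (SD, n = 5 each), and the groups were apart in both genotypes. Its log2 fold change was 0.70 in WT and 0.69 in KO (edgeR adjusted p of 1.5e-09 and 2.24e-08). Bcl2l13, another receptor of the outer mitochondrial membrane, rose 1.82-fold in WT and 1.67-fold in KO (edgeR adjusted p of 5.39e-07 and 2.78e-05). Phb2, an inner membrane protein that binds LC3, rose 1.5-fold in WT and 1.51-fold in KO (edgeR adjusted p of 1.47e-07 and 8.54e-07). Not all went up: Fkbp8, of the same list, fell by 0.77 on the log2 scale in WT and fell by 0.88 in KO (edgeR adjusted p of 8.6e-06 and 9.88e-06).

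Of 8 fusion genes, 3 rose and 2 fell in WT and 3 rose in KO. Tecpr1, which encodes a tethering factor of autophagosomes and lysosomes, rose 2.1-fold in WT and 2.36-fold in KO (edgeR adjusted p of 3.35e-06 and 3.94e-06). Ykt6, a SNARE of that fusion, rose 1.19-fold in WT and 1.31-fold in KO (edgeR adjusted p of 0.00627 and 0.000461). Snap29, another SNARE, fell by 0.34 on the log2 scale in WT (edgeR adjusted p = 0.00862) and was at -0.17 in KO (edgeR adjusted p = 0.235).

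Of 22 transcription factors and genes around mTORC1, the kinase complex that holds autophagy back, 5 rose and 5 fell in each genotype. Mtor itself had the largest rise of the 3 with the smallest p. It went from 78.28 ± 14.66 CPM (SD, n = 7) to 237.6 ± 38.38 CPM (SD, n = 6) in WT and from 80.19 ± 14.58 CPM to 224.1 ± 25.14 CPM in KO (SD, n = 5 each). That is 3.03-fold in WT and 2.79-fold in KO (edgeR adjusted p of 1.6e-09 and 5.16e-08). Sesn2, which restrains mTORC1, rose 2.04-fold in WT and 2.1-fold in KO (edgeR adjusted p of 8.65e-07 and 4.34e-06). Rheb, the GTPase that activates mTORC1, rose 1.36-fold in WT and 1.52-fold in KO (edgeR adjusted p of 3.07e-05 and 3.8e-06). Among those that fell was Tfeb, by 0.68 on the log2 scale in WT and by 0.54 in KO (edgeR adjusted p of 2.34e-05 and 0.00113). Tfe3 passed in neither genotype, with a log2 fold change of -0.1 in WT and 0.17 in KO.

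Of 20 lysosomal genes, 5 rose and 5 fell in each genotype, with a median log2 fold change of -0.13 in WT and -0.06 in KO. Ctsl, which encodes the protease cathepsin L, rose 3.12-fold in WT and 3.31-fold in KO (edgeR adjusted p of 1.05e-05 and 3.93e-05). Ctsd, which encodes cathepsin D, rose 1.42-fold in WT and 1.46-fold in KO (edgeR adjusted p of 5.88e-06 and 1.49e-05). Atp6v1h, a subunit of the proton pump of lysosomes, rose 1.51-fold in WT and 1.73-fold in KO (edgeR adjusted p of 2.33e-06 and 3.86e-07).

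Bnip3 is a known target of the hypoxia factor HIF1, and Sqstm1 of the oxidative stress factor NRF2. The part of either factor in the changes of Bnip3 and Sqstm1 was not tested. Of 13 HIF1 targets, 12 were tested, of which 3 rose and 6 fell in WT and 1 rose and 4 fell in KO, with a median log2 fold change of -0.33 in WT and -0.30 in KO. Vegfa, the angiogenic growth factor, fell by 0.67 on the log2 scale in WT and fell by 0.76 in KO (edgeR adjusted p of 2.43e-06 and 3.12e-06). Ankrd37 fell by 1.96 in WT and fell by 1.42 in KO (edgeR adjusted p of 6.46e-06 and 0.000731), from levels of at most 1.048 CPM. Pgk1, a glycolytic enzyme, rose 1.4-fold in WT and 1.43-fold in KO (edgeR adjusted p of 8.09e-06 and 2.28e-05).

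Of 10 NRF2 targets, 4 rose and 3 fell in WT, and 5 rose and 3 fell in KO. Srxn1, which encodes sulfiredoxin, rose 4.2-fold in WT and 6.4-fold in KO (edgeR adjusted p of 1.21e-07 and 4.53e-08). Gsr, glutathione reductase, rose 1.89-fold in WT and 1.91-fold in KO (edgeR adjusted p of 5.45e-10 and 4.87e-09). Gclc, the catalytic subunit of the enzyme that starts glutathione synthesis, fell by 1.55 on the log2 scale in WT and fell by 1.75 in KO (edgeR adjusted p of 4.73e-05 and 6.02e-05).

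The remaining comparisons asked whether the loss of Ehhadh changed these genes, on saline, on L-AC, or in their response to L-AC. None of the 10 passed in any of them with edgeR's quasi-likelihood test, DESeq2 or limma-voom. All genes tested passed at 0.0141% on saline, at 0.0141% on L-AC and at 0% for the interaction of genotype and treatment. At an unadjusted p under 0.05, 1 of the 10 differed between genotypes on saline, 2 on L-AC and 1 in the interaction, against 1.86%, 4.53% and 2.25% of all genes. Of the 116 genes tested from the 8 pathway lists, 0 passed by edgeR in these comparisons, and 2 on saline, 3 on L-AC and 1 in the interaction had an unadjusted p under 0.05. A p that misses the threshold does not show that the genotypes were alike, and the intervals give the differences that the data allow.

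Sqstm1 had the largest genotype difference on L-AC among the 10. The WT and KO values on L-AC overlapped, since WT replicate 6, at 1113 CPM, lay above KO replicates 1, 4 and 5. The log2 difference of KO against WT on L-AC was 0.42 (95% interval 0.16 to 0.68, unadjusted p = 0.00307, adjusted p = 0.788, edgeR), and on saline it was -0.03 (95% interval -0.28 to 0.23). The interaction was 0.45 (95% interval 0.08 to 0.82, unadjusted p = 0.0185, adjusted p = 1, edgeR). Over the other settings tried, the adjusted p on L-AC ranged from 0.355 to 1 (edgeR, DESeq2 and limma-voom).

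Bnip3 had the opposite sign, with a KO against WT log2 difference of -0.28 on L-AC (95% interval -0.56 to -0.01, unadjusted p = 0.0444, adjusted p = 1, edgeR). Its interaction was -0.34 (95% interval -0.72 to 0.04). Gabarapl2 was lower in all 5 KO than in all 7 WT libraries on saline, 1 of 10 genes whose genotype groups did not overlap there against 0.141% of all genes. Its log2 difference was -0.14 (95% interval -0.26 to -0.01, unadjusted p = 0.0304, adjusted p = 1, edgeR), and on L-AC it was 0.03 (95% interval -0.10 to 0.15). On L-AC no gene of the 10 had groups that were apart, against 0.451% of all genes. Wipi1 had the widest intervals, from -0.70 to 0.54 on saline and from -0.67 to 0.59 on L-AC.

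Bnip3l, Gabarapl1, Map1lc3a, Map1lc3b, Ulk1 and Becn1 had genotype differences between -0.11 and 0.17 on the log2 scale within both treatments, with 95% intervals that lay inside -0.34 to 0.48. Averaged over the treatments, Sqstm1 was the 1 gene of the 10 with an unadjusted p under 0.05 (log2 difference 0.20, 95% interval 0.01 to 0.38, unadjusted p = 0.0371, adjusted p = 1, edgeR), against 3.79% of all genes. None of the 10 passed after adjustment by edgeR, DESeq2 or limma-voom, and 0.0282% of all genes passed by edgeR.

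**Figure D5:**
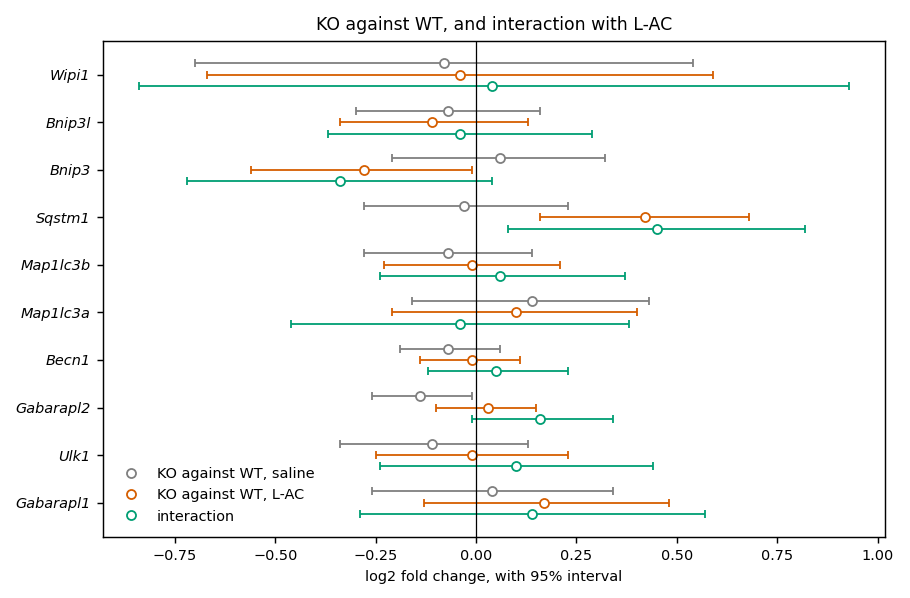
Log2 difference of KO against WT on saline and on L-AC, and the interaction of genotype and treatment, with 95% intervals (horizontal axis). All points are open because none passed, and the intervals of Sqstm1 on L-AC (0.16 to 0.68) and in the interaction (0.08 to 0.82) lie above 0.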

How the data were processed

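The deposited files hold raw counts of reads per gene, 1 file per library, with no normalization by the authors. Per the file headers, counting used featureCounts 1.4.4 over exons grouped by gene in UCSC mm10 models, with primary alignments only, no strand setting and every overlapping gene counted. Reads were aligned with STAR 2.4.0 to mm10 (GRCm38), and edgeR was used, per the submitters' processing notes.

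Here the counts were fitted with edgeR 4.0.16 (R 4.3.3), with TMM scaling, a filter that asks for a count of about 10 in a group-sized number of libraries and 15 in total, and 1 quasi-likelihood model of the 4 groups. The filter kept 14196 genes, with at least 99.94% of the counts of each library. Contrasts gave L-AC against saline in each genotype, KO against WT in each treatment, their interaction and the average over treatments. P-values are two-sided and adjusted by Benjamini-Hochberg over all genes tested. DESeq2 1.42.0 and limma-voom (limma 3.58.1) were alternatives, as were other scaling, filters, age as a covariate, a stricter threshold, fits of the compared groups alone and fits without each library. Library totals from 24521896 to 48095959 set the counting precision.

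Each library has its own number and age in the labels and was taken as 1 mouse. The labels do not state separate animals in words, so p-values measure the spread between these samples. The 56 pairs of replicates were checked for repeated libraries over genes with at least 20 reads in a pair, and no pair came below 44.05 in chi-square per degree of freedom. The members and lists were chosen with earlier results of these data known. All 10 members were named, and from each pathway list up to 3 genes that passed with the smallest p in either L-AC contrast. Fkbp8, Tfeb and the L-AC values of Tfe3 were added outside this rule, after the values were seen. Of 156 list genes in 14 lists, 153 matched by name and 3 by an older symbol. Levels per kilobase use the exon length in the files. Promoters come from RefSeq (GRCm38.p6). Protein sequences were not used here.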

Additional observations from a re-analysis of the deposited data

Results flagged for a closer look

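A single result was far from the others of its group. In WT on L-AC, Becn1 in replicate 3 was at 63.64 CPM, below the other 5 libraries at 65.55 to 66.62 CPM, in a group whose CV was 1.59%. Of the 40 groups examined (10 genes in 4 groups), this was the 1 that stood out, and chance alone marks about 1 in 20 groups.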

How the results depend on the processing

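On L-AC in WT, 6 of the 10 genes passed under all 31 other settings, 23 of which leave out 1 library. In KO, 6 to 7 passed when 1 library was left out, and 5 to 7 under the other settings. The gene lost without a library was Gabarapl2, for KO saline replicates 1, 2, 3 and 4 and KO L-AC replicates 2, 3 and 5 (edgeR adjusted p from 0.0511 to 0.0825). It was also lost with no filter on low counts (edgeR adjusted p = 0.0752) and in a fit of the compared groups alone (edgeR adjusted p = 0.0721). A stricter threshold of 0.01 lost it and Bnip3 in KO. In the genotype comparisons, their average and the interaction, 0 of the 10 passed under every setting run. Of 1840 recomputed values of the 10 genes, 11 lost a call, and 53 changed sign where neither value passed, such as Map1lc3a in KO on L-AC (0.14, with a range from -0.02 to 0.25). No value that passed changed sign.

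Counts over all genes moved by more than 1.5 times in the genotype comparisons. On saline, 2 genes passed, against 7 (DESeq2), 5 (KO saline replicate 1 left out) and 4 (KO L-AC replicate 2 left out). On L-AC, 2 passed, against 15 (DESeq2), 5 (a fit of the compared groups alone), 4 (replicate 4 of WT L-AC left out), 4 (replicate 2 of KO L-AC left out) and 6 (replicate 4 of KO L-AC left out). Averaged over treatments, 4 passed, against 22 (DESeq2) and 7 (replicate 1 of WT saline left out). The cause was not tested.

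No paired analysis was possible because the labels hold no replicate numbers, and those used here only follow the order of the samples.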

Other observations

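Age was set beside the level of each of the 10 genes within the WT groups, which are the groups with at least 6 libraries, giving 20 relations. The Bnip3 level on L-AC had a Pearson r with age of -0.90 (n = 6, exact permutation test, two-sided, p = 0.0208, Benjamini-Hochberg adjusted p = 0.416). Spearman's rho was -0.77 (exact permutation p = 0.103), and r was -0.96 without the 2 ages farthest from the median. On saline, the r of Bnip3 with age was -0.77 (n = 7, exact permutation p = 0.0488, adjusted p = 0.484), with a rho of -0.77 (exact permutation p = 0.0508) and an r of -0.82 without the 2 ages farthest from the median. Both relations of Bnip3 fail the correction, and they were singled out after the values were seen. On L-AC in WT, r with age was -0.81 for Wipi1, -0.67 for Bnip3l and 0.62 for Gabarapl1. Without the 2 ages farthest from the median, r was -0.95, -0.96 and 0.96. Each r without 2 ages, here and for Bnip3, rests on 2 libraries fewer than its group holds. Spearman's rho on L-AC in WT was -0.6 for Wipi1, -0.54 for Bnip3l and 0.6 for Gabarapl1 (exact permutation p = 0.242, 0.297 and 0.242). These relations of Wipi1, Bnip3l and Gabarapl1 fail the correction too (exact permutation test of r, Benjamini-Hochberg adjusted p = 0.484 for each). They were also singled out after the values were seen. On saline in WT, r was -0.39 for Wipi1, 0.24 for Bnip3l and -0.10 for Gabarapl1. With age as a covariate in the edgeR fit, the same 6 genes passed on L-AC in WT and the same 7 in KO.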
